A study of Arabidopsis thaliana with 24 samples.

Results

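The HIPP genes of Arabidopsis thaliana encode heavy metal-associated isoprenylated plant proteins, and 7 of them were followed here through 24 leaf libraries. They were HIPP20 (AT1G71050), HIPP21 (AT5G17450), HIPP22 (AT1G22990), HIPP23 (AT4G39700), HIPP25 (AT4G35060), HIPP26 (AT4G38580, listed as FP6 in RefSeq) and HIPP27 (AT5G66110), 7 of the 22279 genes in each file. All 7 had an entry in every library. The set was taken by locus identifier, and HIPP22 drew attention to it because it was among the strongest responses to abscisic acid (ABA) in these libraries. The set was thus chosen by the ABA against mock values of HIPP22. Levels under ABA against mock are therefore given as a description without a test. The names of 6 of the 7 are in the RefSeq gene table, and AT4G39700 is entered there by its locus alone.

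Leaves of 3-week-old plants of 4 genotypes were sampled. In Delta28 the H2A.Z histone HTA11 lacked its first 28 residues. K>R 1-9 had all 9 lysines of the N-terminal tail of HTA11 changed to arginine, and in K>R 3 the third lysine alone, residue 13, was changed. These 3 lines carried their HTA11 form in an h2a.z null background, WT was the wild type, and the labels list no line with unmodified HTA11 in that background. Each genotype was painted by brush with 10 uM ABA, a hormone made in dry or salty conditions, or with mock solution (DMSO in water), for 4 h. Both solutions held 0.01% Silwet L-77, a wetting agent. The 8 groups had 3 biological replicates each, so that p-values measure the spread between these samples, and the labels do not say how many plants a replicate pooled. The study asked how changes to the H2A.Z tail bear on the response to ABA.

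HIPP proteins carry a heavy metal-associated domain in which a pair of cysteines binds a metal ion such as copper, zinc or cadmium. They end in a CaaX box, whose cysteine is prenylated, a lipid anchor that directs proteins to membranes. HIPP20, HIPP21 and HIPP22 have been linked to cadmium tolerance in yeast and in Arabidopsis, HIPP26 to binding of the transcription factor ZFHD1 and of the acyl-CoA-binding protein ACBP2, and HIPP27 to susceptibility to cyst nematodes.

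The coding sequences show both hallmarks of the family and how far the 7 genes differ. The RefSeq sequences of TAIR10.1 were read by locus on the coding strand. Each of the 7 held exactly 1 pair of cysteine codons with 2 codons between them and at least 2 before them. That core of 18 bases, with the cysteine codons in capitals, is shown for each gene.
HIPP20: atggacTGCgatggtTGT
HIPP21: atggacTGTgatggtTGT
HIPP22: atcgacTGTgacggaTGC
HIPP23: atggatTGTgatggtTGT
HIPP25: atagatTGTgaaggaTGC
HIPP26: atggacTGCgaaggtTGC
HIPP27: atggacTGCgaagggTGC
No pair of the 7 had the same 18 bases. All 7 cores hold TGT or TGC at both cysteine places. The ends of the coding sequences follow, as the last 4 codons and the stop codon, with the cysteine codon of the CaaX box in capitals.
HIPP20: TGCaccgttatgtaa
HIPP21: TGTtccatcatgtga
HIPP22: TGCaccgttatgtga
HIPP23: TGCtctattatgtag
HIPP25: TGTgttgttatgtga
HIPP26: TGTgtggtcatgtga
HIPP27: TGTaccatcatgtga
In all 7 the last 4 codons began with a cysteine codon, and all 7 ended in atg, the methionine codon, before the stop. HIPP20 and HIPP22 had the same last 4 codons. Coding lengths ranged from 444 bases (HIPP27) to 477 bases (HIPP23). In global alignments of whole coding sequences, HIPP20 and HIPP22 were the most alike at 76.8% identical bases, followed by HIPP25 and HIPP26 at 70.6% and HIPP26 and HIPP27 at 67.6%. HIPP23 and HIPP27 were the least alike at 55.3%.

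Total counts per library ranged from 1565518 (WT mock replicate 2) to 15086279 (WT ABA replicate 3). The H2A.Z gene HTA9 had 53.7 to 109 CPM, counts scaled to a library total of 1000000, in the 18 mutant libraries and 301 to 436 CPM in the 6 WT libraries. HTA11 had 393 to 914 CPM in K>R 1-9 libraries, 2.52 to 9.51 CPM in Delta28 libraries and 4.70 to 10.3 CPM in WT libraries. The lines thus also differed in HTA11 level, whose part in the HIPP values was not tested. The library labelled K>R 3 mock replicate 2 had 870 CPM of HTA11 against 5.87 to 38.4 CPM in the other K>R 3 libraries. This library and the shallowest one stand apart, and the results that turn on their values are also given without them. The summed level of the 3 measured leaf mesophyll markers was 238 to 1096 CPM in ABA libraries and 887 to 4677 CPM in mock libraries, and the root marker COBL9 was at 0 in all 24. COBL9 and the mesophyll markers RBCS1A and RCA lie on the minus strand, where the gene models used for counting lack the 3′ exon. The 0 of COBL9 therefore cannot show that root RNA was absent, and the other root marker, LRX1, had no entry. In bulk leaf RNA, fewer cells of a type and less RNA per cell cannot be told apart.

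Of the 7 genes, HIPP21 and HIPP26 had counts in all 24 libraries, with totals of 15033 and 29176 counts. HIPP22 had 13171 counts in 17 libraries. HIPP27, HIPP25, HIPP23 and HIPP20 were sparse, with 310 counts in 20 libraries, 136 in 16, 99 in 17 and 44 in 12. HIPP20 and HIPP25 lie on the minus strand, and the gene models behind the files lack the 3′ exon of such genes, where this 3′ end assay places its reads. Most of their reads are therefore missing from the counts, and their levels are understated beside those of the other 5. A filter on low counts left HIPP21, HIPP22, HIPP25, HIPP26 and HIPP27 for testing, and of these HIPP22, HIPP25 and HIPP27 had no more than 1.55 CPM in any mock library and passed mainly through their ABA libraries.

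**Figure D1:**
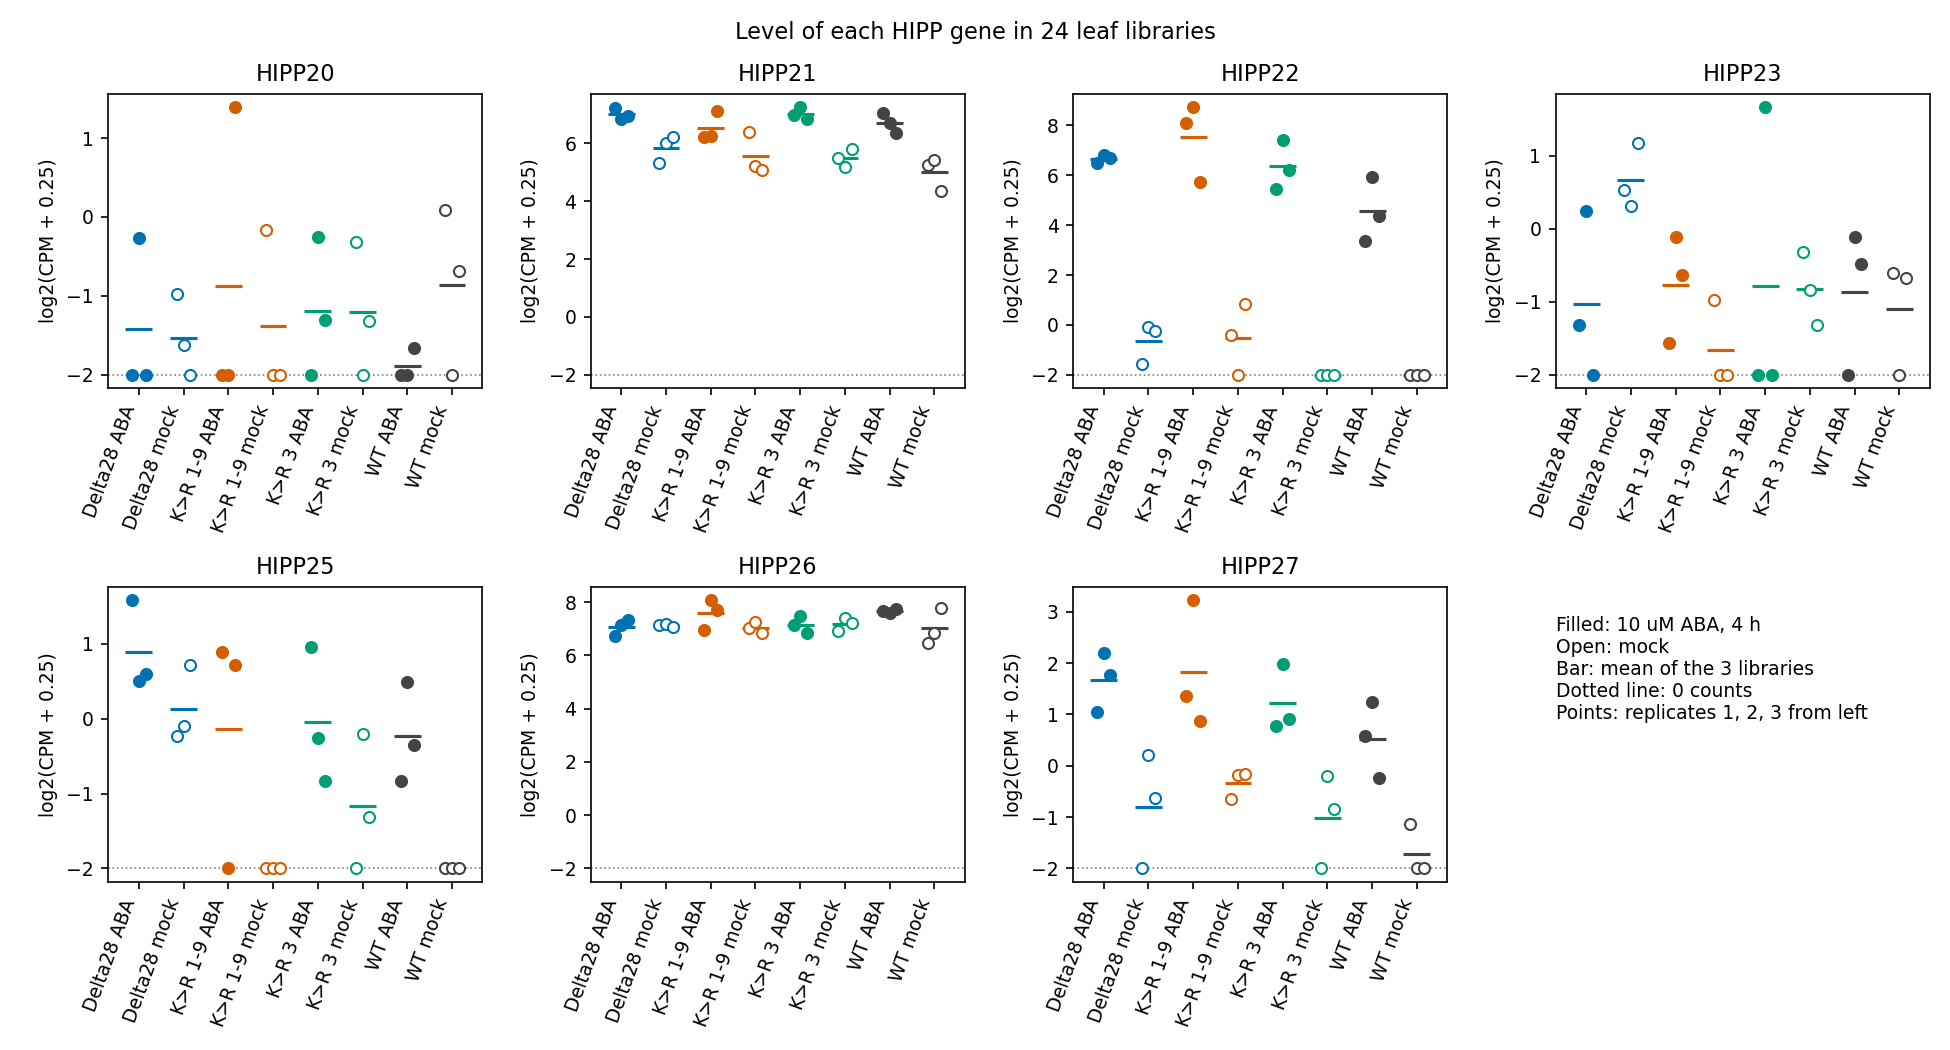
Level of each of the 7 HIPP genes as log2(CPM + 0.25), by genotype and treatment, with ABA (filled) left of mock (open); points are libraries and bars are means of 3. HIPP22 sits between 10.0 and 425 CPM in ABA libraries and between 0 and 1.55 CPM in mock libraries, whereas HIPP26 is between 88.3 and 267 CPM in all 24.

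HIPP22 was almost silent in mock leaves and abundant in ABA leaves of all 4 genotypes. In ABA leaves it had 88.9, 113 and 103 CPM in Delta28, 272, 425 and 53.1 CPM in K>R 1-9, 42.9, 171 and 73.5 CPM in K>R 3, and 10.0, 60.1 and 20.6 CPM in WT. In mock leaves it had 0.0857, 0.684 and 0.600 CPM in Delta28 (13 counts), 0.517, 0 and 1.55 CPM in K>R 1-9 (16 counts), and 0 counts in all 3 libraries of both K>R 3 and WT. No ABA library overlapped a mock library in any genotype. Against a floor of 3 counts over the mock group, HIPP22 was at least 458-fold higher under ABA in K>R 3 and at least 193-fold higher in WT. Without the library labelled K>R 3 mock replicate 2 and without WT mock replicate 2, these bounds were 361-fold and 176-fold. The pooled ratio of ABA to mock was 227 in Delta28 (95% exact binomial interval 132 to 427) and 367 in K>R 1-9 (226 to 643). These intervals cover counting error only.

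All genes tested give the setting for these descriptions, and nothing about the 7 genes is read from it. In the quasi-likelihood test of edgeR (Benjamini-Hochberg adjustment), 14.2% of the 13874 genes tested were called under ABA in Delta28, 9.31% in K>R 1-9, 10.8% in K>R 3 and 5.77% in WT. Genes whose ABA libraries all lay above the mock libraries made up 15.2% in Delta28, 13.3% in K>R 1-9, 13.0% in K>R 3 and 15.6% in WT, and 3.97% in all 4 genotypes. HIPP22 and HIPP27 were among the last, and HIPP21, HIPP25 and HIPP26 were not.

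HIPP22 had its highest ABA library at replicate 2 in each genotype, as did RD29B and RAB18, which ABA is known to induce. RD29B, a classic ABA-induced gene, had 331, 936 and 255 CPM in ABA leaves of Delta28, 265, 836 and 70.9 CPM in K>R 1-9, 126, 829 and 241 CPM in K>R 3, and 182, 437 and 145 CPM in WT. The lowest library of HIPP22 and RD29B was the same in K>R 1-9 and K>R 3, and not in Delta28 and WT. The dehydrin gene RAB18 was also highest in replicate 2 in each genotype, at 97.9 CPM in Delta28, 214 CPM in K>R 1-9, 117 CPM in K>R 3 and 89.1 CPM in WT. HAI1, an ABA-induced phosphatase gene, had 20.2, 138 and 7.86 CPM in Delta28, 28.2, 23.8 and 8.92 CPM in K>R 1-9, 14.3, 25.1 and 18.7 CPM in K>R 3, and 17.8, 46.4 and 6.36 CPM in WT, so that its highest K>R 1-9 library was replicate 1. The part of this library-to-library difference in the HIPP22 values was not tested. RAB18 and HAI1 lie on the minus strand, where the 3′ exon is missing, so their CPM cannot be set beside those of HIPP22.

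**Figure D2:**
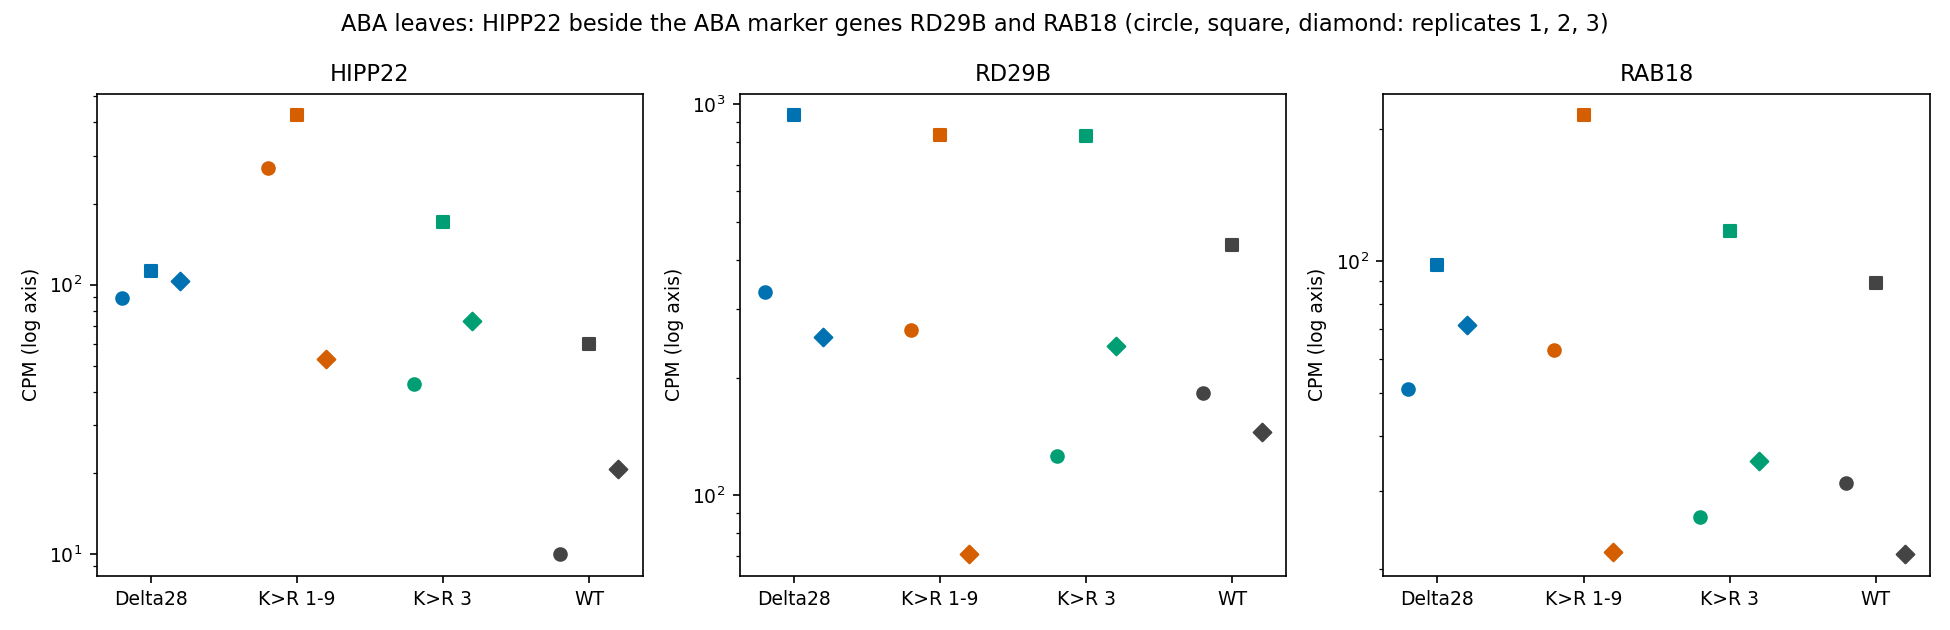
HIPP22, RD29B and RAB18 in the 12 ABA libraries as CPM on a log axis, by genotype, with a marker shape for each replicate number. Replicate 2 (squares) is the highest library of each gene in every genotype, from 60.1 CPM in WT to 425 CPM in K>R 1-9 for HIPP22.

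In ABA leaves the HIPP22 means of the 3 mutants were above that of WT, by differences that did not pass the test. The mean level was 102 ± 11.96 CPM in Delta28, 250 ± 187 CPM in K>R 1-9, 95.9 ± 67.1 CPM in K>R 3 and 30.2 ± 26.4 CPM in WT (SD, n = 3 each). All 3 Delta28 libraries lay above all 3 WT libraries, while the lowest K>R 1-9 and K>R 3 libraries lay below the highest WT library. In the order K>R 1-9, Delta28, K>R 3 and WT, each mean lay within 1 SD of the next, by the larger SD of the pair. In that comparison 3.07% of all genes tested had every Delta28 library above every WT library. The log2 fold change over WT was 3.18 in K>R 1-9 (SE 0.71), with an adjusted p of 0.0916 (edgeR quasi-likelihood test, Benjamini-Hochberg adjustment). It was 1.88 in Delta28 (SE 0.68, adjusted p = 0.422 by edgeR) and 1.69 in K>R 3 (SE 0.67, adjusted p = 0.482 by edgeR). DESeq2 gave an adjusted p of 0.0355 for K>R 1-9, below the threshold of 0.05. Over the 14 alternatives tried, that fold change stayed between 2.62 and 4.11 on the log2 scale and its adjusted p by edgeR or DESeq2 between 0.0355 and 0.410. RD29B in the same leaves had a log2 fold change over WT of 1.15 (SE 0.74) in Delta28, 0.75 (SE 0.74) in K>R 1-9 and 0.67 (SE 0.74) in K>R 3, none of which passed the test. These ABA libraries also entered the contrast by which HIPP22 was picked.

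In mock leaves, traces of HIPP22 were counted in Delta28 and K>R 1-9 and none in K>R 3 and WT. Against the floor of 3 counts over the WT mock libraries, it was at least 2.49-fold higher in Delta28 and at least 4.52-fold higher in K>R 1-9. Neither passed the test, with adjusted p = 0.672 for Delta28 and 0.341 for K>R 1-9 in edgeR's quasi-likelihood test. The 3 Delta28 libraries all lay above 0, a separation from WT that 6.71% of all genes tested showed, whereas a K>R 1-9 library was at 0 like the WT libraries. RD29B had 4.28, 23.9 and 21.6 CPM in Delta28 mock leaves and 2.23, 0 and 1.03 CPM in WT mock leaves, a log2 fold change of 3.70 (SE 1.00) that did not pass the test (adjusted p = 0.210 by edgeR). RAB18 had 4.03, 1.75 and 3.80 CPM in Delta28 mock leaves and 3.24, 4.47 and 3.19 CPM in WT mock leaves. The part of either in the HIPP22 traces was not tested. Without WT mock replicate 2, the bounds for HIPP22 were at least 2.27-fold in Delta28 and at least 4.11-fold in K>R 1-9.

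**Figure D3:**
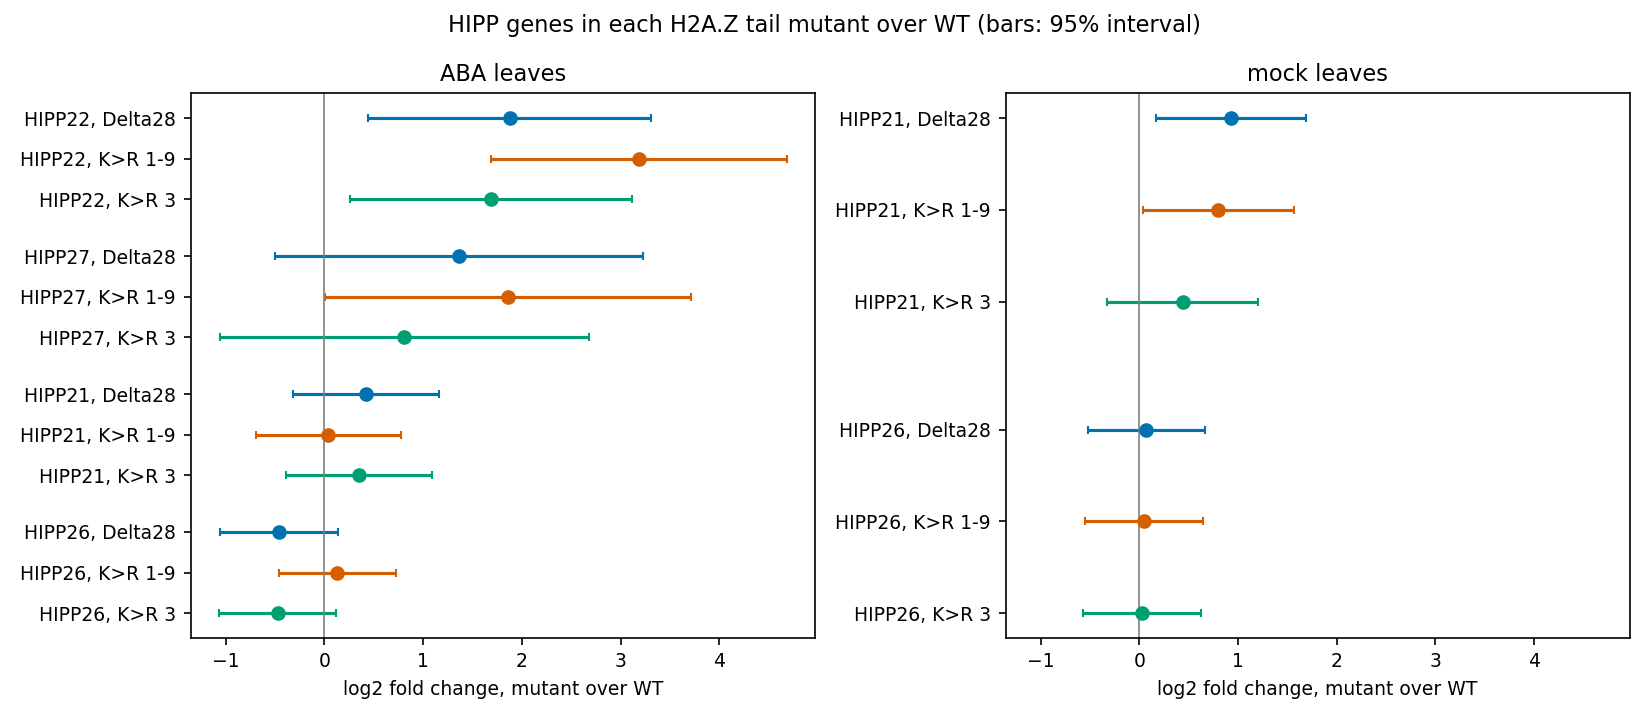
Log2 fold change of each mutant over WT in ABA leaves (left) and mock leaves (right). Drawn are HIPP22, HIPP27, HIPP21 and HIPP26, where both groups held more than 3 counts, and HIPP25 is left out. Points are edgeR estimates and bars their 95% intervals. HIPP22 in K>R 1-9 lies farthest from 0, at 3.18, and HIPP26 lies between -0.47 and 0.13 in every comparison.

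HIPP21, which like HIPP22 has been linked to cadmium tolerance, was counted in all 24 libraries and had the larger mean under ABA in each genotype. In ABA leaves it had 147, 113 and 124 CPM in Delta28, 74.8, 75.2 and 137 CPM in K>R 1-9, 126, 152 and 114 CPM in K>R 3, and 131, 104 and 80.9 CPM in WT. In mock leaves it had 39.8, 63.9 and 74.9 CPM in Delta28, 83.6, 37.2 and 33.7 CPM in K>R 1-9, 44.2, 35.7 and 54.9 CPM in K>R 3, and 38.1, 42.2 and 20.2 CPM in WT. ABA and mock libraries did not overlap in Delta28, K>R 3 and WT, and in K>R 1-9 they did, since mock replicate 1 exceeded ABA replicates 1 and 2. The log2 fold change of ABA over mock was 1.20 in Delta28 (SE 0.35), 0.95 in K>R 1-9 (SE 0.35), 1.62 in K>R 3 (SE 0.36) and 1.71 in WT (SE 0.37). By mean level the 4 ABA groups took the first 4 places, from 131 CPM in K>R 3 to 95.6 CPM in K>R 1-9, and each lay within 1 SD of the next (the larger SD of the pair). The 4 mock groups followed, from 59.5 CPM in Delta28 to 33.5 CPM in WT, again each within that distance of the next.

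In mock leaves, HIPP21 averaged 59.5 ± 17.9 CPM in Delta28, 51.5 ± 27.8 CPM in K>R 1-9, 44.9 ± 9.58 CPM in K>R 3 and 33.5 ± 11.7 CPM in WT (SD, n = 3 each). Each mutant overlapped WT. The log2 fold change over WT was 0.93 in Delta28 (95% interval 0.16 to 1.69), 0.80 in K>R 1-9 (0.04 to 1.56) and 0.44 in K>R 3 (-0.33 to 1.20). Their adjusted p were 0.450, 0.308 and 0.622 (edgeR quasi-likelihood test, Benjamini-Hochberg adjustment). Without WT mock replicate 2 and the library labelled K>R 3 mock replicate 2, the fold changes were 1.05, 0.92 and 0.72, the last moving by more than the others. Over the 14 alternatives the Delta28 value ranged from 0.61 to 1.11, the K>R 1-9 value from 0.20 (without K>R 1-9 mock replicate 1) to 1.04, and the K>R 3 value from 0.13 (without WT mock replicate 3) to 0.72. In ABA leaves the log2 fold change over WT was 0.42 in Delta28, 0.04 in K>R 1-9 and 0.35 in K>R 3. The ABA response of HIPP21 minus that of WT was -0.51 in Delta28 (95% interval -1.57 to 0.55), -0.76 in K>R 1-9 (-1.82 to 0.30) and -0.09 in K>R 3 (-1.15 to 0.97) on the log2 scale. None of these passed the test, and the intervals leave room for differences of more than 1 on that scale.

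HIPP20, whose coding sequence is nearest to that of HIPP22, showed no such pattern in the few reads it had. It had 0, 0.584 and 0 CPM in ABA leaves of Delta28, 0, 0 and 2.38 CPM in K>R 1-9, 0, 0.587 and 0.156 CPM in K>R 3, and 0, 0 and 0.0663 CPM in WT. Mock leaves had 0 to 0.257 CPM in Delta28, 0 to 0.646 CPM in K>R 1-9, 0 to 0.553 CPM in K>R 3 and 0 to 0.810 CPM in WT. ABA and mock libraries overlapped in every genotype. The pooled ratio of ABA to mock in WT was 0.0748 (exact interval 0.00169 to 0.558), from 1 count against 8. Without WT mock replicate 2 it was 0.0680 (0.00153 to 0.507). That of K>R 1-9 over WT in ABA leaves was 12.9 (1.91 to 553), with all 12 K>R 1-9 counts in replicate 3. These intervals cover counting error only. HIPP20 had 44 counts in all, on a gene model that lacks the 3′ exon, and did not pass the filter, so no test was made.

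HIPP26 was the steadiest of the 7 genes, with 88.3 to 267 CPM over the 24 libraries. In ABA leaves it had 105, 142 and 160 CPM in Delta28, 124, 267 and 209 CPM in K>R 1-9, 141, 177 and 115 CPM in K>R 3, and 204, 194 and 215 CPM in WT. In mock leaves it had 140, 145 and 133 CPM in Delta28, 129, 154 and 115 CPM in K>R 1-9, 119, 171 and 149 CPM in K>R 3, and 88.3, 116 and 220 CPM in WT. ABA and mock libraries overlapped in all 4 genotypes. The log2 fold change of ABA over mock was 0.03 in Delta28, 0.65 in K>R 1-9, 0.06 in K>R 3 and 0.57 in WT, each with an SE of 0.28. Ordered by mean level, each of the 8 groups lay within the larger SD of the pair from the next, from 204 CPM in WT ABA leaves to 132 CPM in K>R 1-9 mock leaves.

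In ABA leaves, every HIPP26 library of Delta28 and of K>R 3 lay below every WT library. The mean was 136 ± 27.9 CPM in Delta28, 200 ± 72.0 CPM in K>R 1-9, 144 ± 31.1 CPM in K>R 3 and 204 ± 10.8 CPM in WT (SD, n = 3 each). Such a separation downwards was found for 12.0% of all genes tested in Delta28 and 7.37% in K>R 3. The log2 fold change over WT was -0.46 in Delta28 (95% interval -1.06 to 0.13), 0.13 in K>R 1-9 (-0.46 to 0.72) and -0.47 in K>R 3 (-1.07 to 0.12). Their adjusted p were 0.725, 0.911 and 0.685 in edgeR's quasi-likelihood test, so none passed. In mock leaves the log2 fold change over WT lay between 0.03 and 0.07 in the 3 mutants, and all 3 estimates were below 0 without WT mock replicate 2 and the library labelled K>R 3 mock replicate 2. The ABA response minus that of WT was -0.53 in Delta28 (-1.37 to 0.31), 0.08 in K>R 1-9 (-0.76 to 0.92) and -0.50 in K>R 3 (-1.34 to 0.34), none past the test.

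HIPP27 and HIPP25, each nearest to HIPP26 in coding sequence, were scarce. HIPP27 had 1.83, 4.32 and 3.14 CPM in ABA leaves of Delta28, 2.32, 9.07 and 1.59 CPM in K>R 1-9, 1.45, 3.72 and 1.63 CPM in K>R 3, and 1.25, 2.11 and 0.597 CPM in WT. In mock leaves it had 0 to 0.912 CPM in Delta28, 0.388 to 0.644 CPM in K>R 1-9, 0 to 0.616 CPM in K>R 3 and 0 to 0.203 CPM in WT, where 1 count was found in all. In each genotype all ABA libraries lay above the mock libraries, and replicate 2 was again the highest ABA library of each genotype. The pooled ratio of ABA to mock was 6.08 in Delta28 (exact interval 3.40 to 11.7), 8.86 in K>R 1-9 (4.79 to 18.2), 7.92 in K>R 3 (2.89 to 30.3) and 20.9 in WT (3.52 to 850). Without the library labelled K>R 3 mock replicate 2 the K>R 3 ratio was 12.5 (3.26 to 106), and without WT mock replicate 2 the WT ratio was 19.0 (3.20 to 773). Over WT in ABA leaves, its log2 fold change was 1.36 in Delta28 (SE 0.88), 1.86 in K>R 1-9 (SE 0.88) and 0.81 in K>R 3 (SE 0.88). Adjusted p were 0.741, 0.420 and 0.876 in edgeR's quasi-likelihood test, and none passed. In mock leaves every K>R 1-9 library lay above every WT library, as for 6.01% of all genes tested.

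HIPP25 was counted in Delta28 mock leaves but in neither K>R 1-9 nor WT mock leaves. It had 0.600, 0.684 and 1.40 CPM in Delta28 mock leaves (23 counts) and 0, 0.616 and 0.153 CPM in K>R 3 mock leaves (3 counts). The level in Delta28 was at least 4.41-fold that of WT against the floor of 3 counts, with an adjusted p of 0.360 in edgeR's quasi-likelihood test. All 3 Delta28 libraries lay above the WT libraries, as for HIPP22 and for 6.71% of all genes tested. In ABA leaves HIPP25 had 2.74, 1.17 and 1.26 CPM in Delta28, 1.60, 0 and 1.39 CPM in K>R 1-9, 1.70, 0.587 and 0.311 CPM in K>R 3, and 0.313, 1.15 and 0.530 CPM in WT. Against mock it was at least 6.34-fold higher in K>R 1-9 and at least 4.19-fold higher in WT, and pooled ratios were 2.61 in Delta28 (1.56 to 4.48) and 3.21 in K>R 3 (0.897 to 17.4). Of the 3 K>R 3 mock counts, 2 were in the library labelled replicate 2, and without it the K>R 3 ratio was 7.59 (1.15 to 321). Without WT mock replicate 2 the bound in WT was 3.81-fold, and that of Delta28 over WT in mock leaves 4.01-fold. The ABA and mock libraries were fully apart in WT, as for 15.6% of all genes tested, and overlapped in the 3 mutants. In ABA leaves the Delta28 libraries lay above the WT libraries, as for 3.07% of all genes tested. The closest of these were nearly level, at 1.17 CPM in Delta28 and 1.15 CPM in WT. Over WT in ABA leaves, the log2 fold change of HIPP25 was 1.46 in Delta28, 0.68 in K>R 1-9 and 0.23 in K>R 3, with SEs of 1.06, 1.07 and 1.12.

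HIPP23 had its highest group mean in Delta28 mock leaves, within the larger SD of the pair from the next, K>R 3 ABA leaves. It had 1.20, 0.988 and 2.00 CPM there (37 counts), 0.258, 0 and 0 CPM in K>R 1-9, 0.553, 0.308 and 0.153 CPM in K>R 3, and 0.405, 0 and 0.375 CPM in WT (6 counts). The pooled ratio of Delta28 to WT was 3.55 (exact interval 1.49 to 10.3), and without WT mock replicate 2 it was 3.23 (1.35 to 9.35). The Delta28 libraries lay above the WT libraries, as for 6.71% of all genes tested. In ABA leaves HIPP23 had 0.152, 0.935 and 0 CPM in Delta28, 0.0891, 0.676 and 0.396 CPM in K>R 1-9, 0, 2.94 and 0 CPM in K>R 3, and 0, 0.672 and 0.464 CPM in WT, so that the highest single library was K>R 3 ABA replicate 2. Under ABA its Delta28 level was thus below all Delta28 mock libraries, with 10 counts against 37 and a pooled ratio of 0.324 (0.144 to 0.665), where 18.8% of all genes tested lay apart downwards. HIPP23 did not pass the filter, so no test was made.

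The make-up of HIPP reads differed between treatments, and the HIPP22 share was higher in every ABA library than in any mock library. HIPP22 made up 25.7% to 30.03% of the summed CPM of the 7 genes in ABA leaves of Delta28, 13.1% to 57.2% in K>R 1-9, 13.7% to 33.7% in K>R 3 and 2.90% to 16.6% in WT. In mock leaves its share was at most 1.02%. HIPP26 held 30.5% to 41.0% in ABA leaves of Delta28, 26.2% to 51.6% in K>R 1-9, 34.8% to 45.1% in K>R 3 and 53.6% to 67.6% in WT, and 60.1% to 91.3% in mock leaves. The 3 WT shares of HIPP26 in ABA leaves lay above the shares in the 9 mutant ABA libraries. A share also depends on the other genes of the sum, HIPP22 among them, and no like figure over all genes was made. The HIPP26 level itself was close in K>R 1-9 and WT ABA leaves, with means of 200 and 204 CPM. HIPP21 held 9.68% to 42.5% in ABA leaves and 8.39% to 39.0% in mock leaves. In WT alone its share was 25.4% to 37.7% in ABA leaves and 8.39% to 29.8% in mock leaves. HIPP23 and HIPP27 had few reads, and the shares of HIPP20 and HIPP25 are understated for the missing exon. On the deposited TPM, which are scaled by length, the HIPP22 share in ABA leaves was 3.45% to 62.0% and the HIPP26 share 23.95% to 67.7%. A 3′ end assay yields about 1 read position per molecule, so reads do not accumulate with length and both scales are given.

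**Figure D4:**
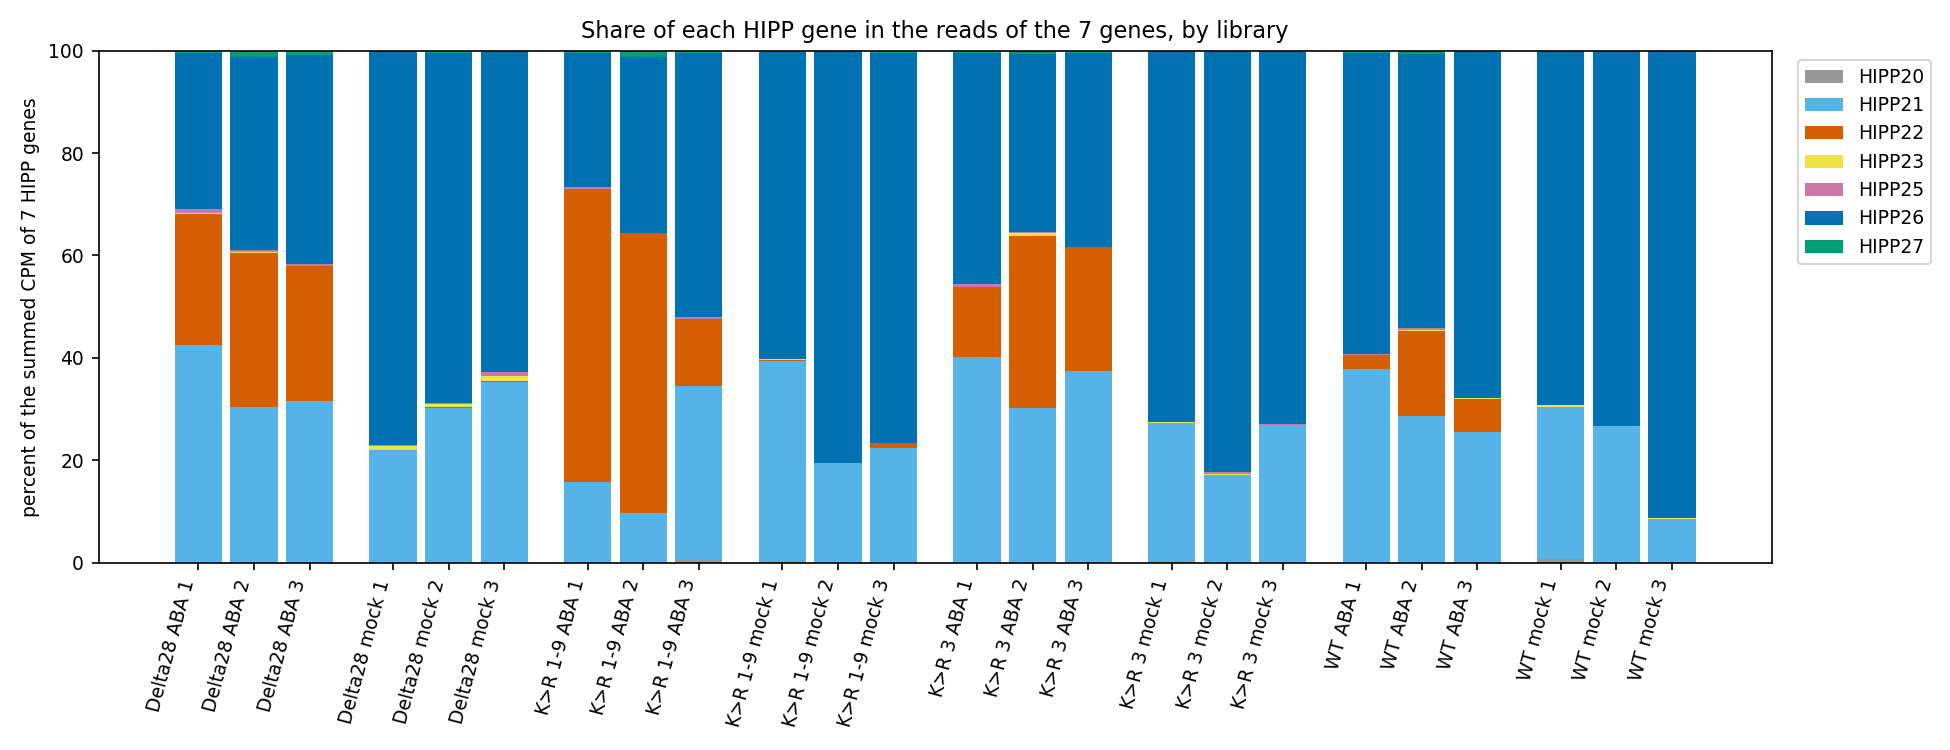
Percent of the summed CPM of the 7 HIPP genes in each of the 24 libraries, with ABA left of mock and mutants left of WT. HIPP22 reaches 57.2% in a K>R 1-9 ABA library and stays at or below 1.02% in mock libraries, where HIPP26 holds 60.1% to 91.3%.

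Across the comparisons between genotypes, 42 tests of the 5 genes that passed the filter were made and 0 were called (edgeR quasi-likelihood test, Benjamini-Hochberg adjustment). The lowest adjusted p among them by edgeR was 0.0916. By DESeq2 HIPP22 in K>R 1-9 ABA leaves was called, as were 194 (1.4%) of the 13874 genes in that comparison. At an unadjusted p below 0.05 there were 8, namely HIPP22 in ABA leaves of the 3 mutants and in K>R 1-9 mock leaves, HIPP21 in Delta28 and K>R 1-9 mock leaves, HIPP25 in Delta28 mock leaves and HIPP27 in K>R 1-9 ABA leaves. All comparisons in a treatment share the same WT libraries, and 6 of the 8 concern HIPP22, HIPP25 or HIPP27, which passed the filter mainly through ABA libraries, so that their count and direction are a description. Over all genes, p was below 0.05 for 1232 (Delta28), 2004 (K>R 1-9) and 1794 (K>R 3) of the 13874 tested against WT in mock leaves, and for 1116, 1588 and 1199 in ABA leaves of the same lines. By edgeR, the calls over all genes made up 0.115% of the 13874 genes in Delta28, 0.101% in K>R 1-9 and 0.00721% in K>R 3 in ABA leaves, and 0.159%, 0.245% and 0.00721% in mock leaves of the same lines. For the difference in ABA response, 0 genes were called in any mutant by edgeR or by DESeq2, and 445, 456 and 512 had an unadjusted p below 0.05 in edgeR.

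The sequences upstream of the genes were read for short motifs linked to ABA, drought and copper. Shown are the 250 bases before the start of the RefSeq gene (TAIR10.1) on each gene's own strand, all 4 on the plus strand. This start is the first base of the annotated gene and not the start codon. The windows are those of HIPP22 and HIPP27, whose ABA libraries lay above mock in all 4 genotypes, and of HIPP21 and HIPP26, the genes read in every library. HIPP22 is on chromosome 1, HIPP21 and HIPP27 are on chromosome 5 and HIPP26 is on chromosome 4. Capitals mark ACGTG, the core of the ABA-responsive element, and CCGAC, the core of the drought-responsive element, on either strand.
HIPP22: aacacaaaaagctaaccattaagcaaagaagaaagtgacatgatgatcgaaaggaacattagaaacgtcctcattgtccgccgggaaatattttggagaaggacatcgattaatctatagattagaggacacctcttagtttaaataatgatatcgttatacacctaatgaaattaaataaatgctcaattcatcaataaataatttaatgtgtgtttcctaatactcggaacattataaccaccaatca
HIPP27: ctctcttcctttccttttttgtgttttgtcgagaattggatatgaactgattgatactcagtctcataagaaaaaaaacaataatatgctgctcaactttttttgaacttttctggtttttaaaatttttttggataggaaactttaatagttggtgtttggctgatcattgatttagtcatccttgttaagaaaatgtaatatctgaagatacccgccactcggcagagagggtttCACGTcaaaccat
HIPP21: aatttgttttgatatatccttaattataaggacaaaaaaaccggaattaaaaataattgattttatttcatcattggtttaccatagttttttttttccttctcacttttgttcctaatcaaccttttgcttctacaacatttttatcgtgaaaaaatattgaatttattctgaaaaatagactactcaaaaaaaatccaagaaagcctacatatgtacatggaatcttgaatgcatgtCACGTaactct
HIPP26: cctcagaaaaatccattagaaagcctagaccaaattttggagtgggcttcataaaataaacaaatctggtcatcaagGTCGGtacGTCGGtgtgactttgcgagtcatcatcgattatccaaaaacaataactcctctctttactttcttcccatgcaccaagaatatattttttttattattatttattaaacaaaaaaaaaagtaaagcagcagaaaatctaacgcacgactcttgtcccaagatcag
ACGTG was found once upstream of HIPP21, 11 bases before the start, and once upstream of HIPP27, 13 bases before it, both on the opposite strand. It was not in the windows of HIPP20, HIPP22, HIPP23, HIPP25 or HIPP26, and 22.9% of 27437 protein-coding genes hold it in a window of the same length. The longer forms ACGTGGC and ACGTGTC, each of which contains ACGTG, were in none of the 7 windows and in 3.38% and 3.68% of all windows. CCGAC was found at 2 places upstream of HIPP26, 173 and 165 bases before the start, and once upstream of HIPP20, against 12.0% of all windows. The copper element core GTAC, which is the same on both strands and overlaps a CCGAC of HIPP26, was upstream of HIPP21, HIPP23 and HIPP26, against 34.3% of all windows. These are matches of letters, and binding was not measured.

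The genes whose levels ran most like each HIPP gene over the 24 libraries were listed as a description. The libraries share treatment and depth, so a high correlation of log2 CPM mainly says that 2 genes were high in the same libraries. Nearest to HIPP22 were JAZ11, a jasmonate ZIM-domain gene (Pearson r = 0.961), the lipid-transfer family gene AT5G59330 (0.958) and the dehydrin gene XERO1 (0.956). HIPP21 ran with AT1G09500, which encodes a Rossmann-fold protein (0.945), the alpha-amylase gene AMY2 (0.944) and the caleosin gene RD20 (0.934). Nearest to HIPP27 were AT1G26580 (0.931), AT3G14360 (0.917) and AT3G54680 (0.916). For HIPP25 the values were lower, with AT1G63530 at 0.789, the homeobox gene ATHB13 at 0.784 and SCPL11 at 0.769. HIPP26 had the lowest, with AT5G01160 at 0.662, the calmodulin-like gene CML38 at 0.658 and FHA2 at 0.652.

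Among the other genes of the family, some were called higher under ABA and some lower. Of 44 further HIPP and related metal-domain genes, 43 had an entry and 22 passed the filter. Under ABA, 3 were called higher and 3 lower in Delta28, 1 higher and 1 lower in K>R 1-9 and in K>R 3, and 0 in WT. Of all genes tested, 8.69% were called higher and 5.56% lower in Delta28, 5.73% and 3.58% in K>R 1-9, 6.08% and 4.7% in K>R 3, and 4.14% and 1.63% in WT. Their median log2 fold change was -0.19 in Delta28, 0.10 in K>R 1-9, -0.10 in K>R 3 and 0.14 in WT, beside medians of -0.05, -0.02, 0.00 and 0.00 over all genes tested. FP3, which encodes a farnesylated protein, fell by 1.04 in Delta28 and by 1.04 in K>R 3 on the log2 scale. Its means there were 31.5 and 31.8 CPM in ABA leaves and 67.3 and 71.9 CPM in mock leaves. FP3 had -0.72 in K>R 1-9 and -0.955 in WT without passing. AT1G30473 rose in Delta28 (log2 fold change 2.03) and K>R 1-9 (1.46), and had 0.19 in K>R 3 and 1.10 in WT without passing. AT5G05365 rose in K>R 3 (1.60), and had 0.66 in Delta28, 0.62 in K>R 1-9 and 1.07 in WT without passing. AT5G50740 fell by 4.21 in Delta28, and had -1.11 in K>R 1-9, -1.77 in K>R 3 and -1.86 in WT without passing. AT2G35730 was called higher in Delta28, where it had 1.90 CPM in ABA leaves and 0 counts in mock leaves. Its mean was 1.68 CPM in ABA and 0.215 CPM in mock leaves of K>R 1-9. In K>R 3 and WT it was 1.13 and 1.08 CPM in ABA leaves and 0 CPM in mock leaves, and these 3 genotypes did not pass. AT1G56210 fell by 1.44 in Delta28, and had -1.27 in K>R 1-9, -1.52 in K>R 3 and -1.60 in WT without passing.

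Of 8 genes of the prenylation machinery, all measured and tested, 1 was called under ABA. GGB, the beta subunit of a prenyltransferase, rose in Delta28 (log2 fold change 0.74) and K>R 1-9 (0.65). It had 0.36 in K>R 3 and 0.34 in WT without passing the test. The other 7 were not called. Over all genes tested, the called-higher shares were 8.69% in Delta28, 5.73% in K>R 1-9, 6.08% in K>R 3 and 4.14% in WT. The medians of the 8 were 0.07, -0.01, 0.10 and 0.17 in Delta28, K>R 1-9, K>R 3 and WT, beside the all-gene medians of -0.05, -0.02, 0.00 and 0.00. Whether the GGB response differed between genotypes was tested in the same fit, and no gene passed.

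Among 39 genes of metal handling, 31 had an entry and 21 were tested. Under ABA, 4 rose in Delta28, 0 in K>R 1-9, 0 in K>R 3 and 3 in WT, and none fell, beside called-higher shares of 8.69%, 5.73%, 6.08% and 4.14% over all genes tested in these genotypes. HMA5, a copper-transporting ATPase, rose in Delta28 (log2 fold change 2.14) and WT (2.23), and MTP1, a vacuolar zinc transporter, rose in Delta28 (1.44) and WT (1.10). The metallothionein gene MT1C rose in Delta28 (2.44), with means of 1767 CPM in ABA leaves and 344 CPM in mock leaves. It had 1.76 in K>R 1-9, 2.09 in K>R 3 and 2.36 in WT without passing, the last at an adjusted p of 0.0530 by edgeR. YSL3, a metal-nicotianamine transporter, rose in Delta28 (0.88). NRAMP3, a vacuolar metal exporter, rose in WT (2.35) and had 1.42 in Delta28 without passing. HMA5, MTP1 and NRAMP3 had 0.45 to 1.32 in the K>R lines without passing, and YSL3 had -0.01 in K>R 1-9, -0.45 in K>R 3 and 0.29 in WT. The list medians were 0.34 in Delta28, 0.09 in K>R 1-9, 0.11 in K>R 3 and 0.07 in WT, beside -0.05, -0.02, 0.00 and 0.00 over all genes tested.

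ACBP2, the membrane protein reported to bind HIPP26, rose under ABA in Delta28 (log2 fold change 1.21), K>R 3 (1.23) and WT (1.07), and had 0.58 in K>R 1-9 without passing the test. Its mean level was 27.02 CPM in ABA leaves and 12.4 CPM in mock leaves of Delta28, and 26.2 CPM in ABA leaves and 12.6 CPM in mock leaves of WT. ZFHD1 had no entry in these libraries. No gene of these 4 lists was called between a mutant and WT, in ABA or in mock leaves, by edgeR. Of the markers of other leaf cell types, KAT1, FAMA, SLAC1, SUC2, AHA3, IRX3, PDF1 and FDH lie on the minus strand, where the 3′ exon is missing. Their levels cannot be set beside those of GC1, XCP1 and ATML1, so the make-up of each sum depends on the gene models. Summed marker levels of these cell types stood as follows. The vascular marker sum was 149 to 279 CPM in ABA libraries and 59.2 to 166 CPM in mock libraries, the guard cell sum 140 to 393 CPM in ABA libraries and 74.9 to 165 CPM in mock libraries, and the epidermis sum 136 to 271 CPM in ABA libraries and 118 to 269 CPM in mock libraries. Within each genotype the ABA libraries lay above the mock libraries in the vascular sum, where AHA3 alone was called in each, and none of the epidermis markers was called. Most of the guard cell sum was the potassium channel gene KAT1, whose log2 fold change under ABA was 1.57 in Delta28, 0.85 in K>R 1-9, 2.32 in K>R 3 and 1.80 in WT, all but the K>R 1-9 value past the test. The guard cell gene GC1 ran the other way, at -3.82, -3.59 and -4.30 in the 3 mutants, past the test, and -1.64 in WT, which was not. FAMA, a regulator of guard cell fate, fell by 2.00 in K>R 1-9 and was not called elsewhere. Their part in the HIPP values was not tested.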

How the data were processed

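RNA from leaves was measured in 24 libraries of 8 groups, assigned by the genotype and treatment in their labels. By the labels' protocols, about 100 mg of leaf gave DNase-treated RNA, of which 500 ng entered a Lexogen QuantSeq FWD V2 library, which reads 3′ ends. The submitters' processing notes name Trim Galore, STAR and RSEM. Versions, build, and use of strand in counting were not given in the sources used. Per the file headers, the deposited RSEM files hold expected counts, the authors' estimates of reads per gene (1.21% to 2.36% of values not whole), and TPM and FPKM. The deposited TPM were used only for shares and the deposited FPKM were not used. Of 22279 genes, 22232 matched the RefSeq TAIR10.1 annotation. For 99.3% of 11674 genes with 1 transcript, the deposited length left out the exon of lowest coordinate, which on the minus strand is the 3′ exon. Minus-strand genes took 12.6% to 17.6% of counts. Genes with a single exon were not analysed.

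Rounded expected counts of all groups entered 1 quasi-likelihood model in edgeR 4.0.16 with R 4.3.3 (filterByExpr, 13874 genes, TMM factors 0.886 to 1.135, 16 residual degrees of freedom). The threshold was an adjusted p (Benjamini-Hochberg, over all genes tested) below 0.05. The test was checked on simulated data. There were 13 comparisons, 9 of them between genotypes. Levels are CPM, counts scaled to a file total of 1000000. A fold against a group at 0 is a lower bound against 3 counts over that group, and pooled ratios carry exact binomial 95% intervals. Depth ranged from 1565518 to 15086279 counts, and the exact binomial intervals cover counting error only. The SE of an edgeR log2 fold change is its absolute value over the square root of the F statistic. Its 95% interval uses that SE and the t distribution with 16 degrees of freedom, so the spread between replicates enters both. Alternatives were other scaling (RLE, total counts), no filter, DESeq2 1.42.0, the compared groups alone, a replicate block, each library left out, 2 libraries left out together and plus-strand genes alone.

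The 7 genes and all lists were chosen with earlier results of these data known. All 7 are described. The 3 genes with the highest Pearson r of log2 CPM (prior count 2) over the 24 libraries were named per tested HIPP gene, and in each list up to 6 called genes with the largest mean ABA change. No deposited build is named, so no coordinates are given, and upstream and coding sequences were looked up by locus.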

Additional observations from a re-analysis of the deposited data

How the results depend on the processing

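Where every group compared held more than 3 counts, no HIPP gene left by the filter was called between genotypes in any alternative, with 1 exception. That was HIPP22 in K>R 1-9 ABA leaves, with a log2 fold change of 3.21 by DESeq2. Comparisons with a group at or under 3 counts, such as HIPP22, HIPP25 and HIPP27 in mock leaves, were not followed through the alternatives. Neither were HIPP20 and HIPP23. The number of genes called over the whole table moved by more than 1.5 times in several settings. DESeq2 called 1291 genes under ABA in WT. Against WT in mock leaves it called 88 (Delta28), 355 (K>R 1-9) and 79 (K>R 3), and against WT in ABA leaves 92, 194 and 41 in the same lines. With the compared groups alone, 430 genes were called under ABA in K>R 3, 10 in K>R 1-9 against WT in mock leaves, and 0 in Delta28 and 3 in K>R 1-9 against WT in ABA leaves. Total count scaling gave 25 (Delta28) and 53 (K>R 1-9) against WT in ABA leaves, and plus-strand genes alone gave 34 in mock and 25 in ABA leaves for Delta28. Without WT mock replicate 2 and the library labelled K>R 3 mock replicate 2, 255 genes were called under ABA in WT, 9 in Delta28 and 7 in K>R 1-9 against WT in mock leaves, and 7 in K>R 1-9 against WT in ABA leaves.

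Leaving out 1 library at a time gave 889 to 1944 calls under ABA in Delta28, 532 to 1327 in K>R 1-9, 529 to 1388 in K>R 3 and 240 to 809 in WT, the lowest without Delta28 mock replicate 1, K>R 1-9 mock replicate 2, K>R 3 mock replicate 1 and WT ABA replicate 2. Against WT in mock leaves it gave 4 to 12 calls (Delta28), 1 to 42 (K>R 1-9) and 1 to 13 (K>R 3). In ABA leaves it gave 2 to 10, 1 to 17 and 1 to 151, the last without K>R 3 ABA replicate 3. The causes were not tested.

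Replicate numbers are shared by all groups. Same-numbered libraries of a genotype had correlations of their deviations between -0.16 and 0.27, and 10 of 24 libraries were closest to their own number, so the numbers were not taken to pair libraries. That check ran over all genes and both treatments. For HIPP22, HIPP27, RD29B and RAB18, replicate 2 was nonetheless the highest ABA library in each genotype. A replicate block gave 725 calls under ABA in WT and 8 in K>R 1-9 against WT in ABA leaves. In the comparisons between genotypes that were followed, no HIPP gene was called with this block. It gives a replicate number the same effect in ABA and mock libraries, so it cannot take up a difference found in ABA libraries alone.

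Estimates near 0 changed sign. For HIPP26 in mock leaves, total count scaling gave -0.0255 in Delta28 and -0.10 in K>R 1-9. Plus-strand genes alone gave -0.0064 in K>R 1-9 and -0.0815 in K>R 3. The compared groups alone gave -0.0050 in K>R 3 and DESeq2 -0.0011. Without the 2 libraries named above the values were -0.0866 (Delta28), -0.11 (K>R 1-9) and -0.23 (K>R 3). Single libraries left out gave -0.17 to 0.52, -0.17 to 0.51 and -0.20 to 0.48 in these lines. In ABA leaves total count scaling gave -0.03 for HIPP26 and -0.14 for HIPP21 in K>R 1-9, where single libraries left out gave -0.0853 to 0.37 and -0.35 to 0.25. The HIPP25 value of K>R 3 ranged from -0.66 to 0.81. The ABA response minus that of WT ranged from -0.39 to 0.34 for HIPP26 in K>R 1-9 and from -0.29 to 0.19 for HIPP21 in K>R 3, the latter value being 0.0091 with plus-strand genes alone.

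Depth limits HIPP20, HIPP23, HIPP25 and HIPP27 most, with 44 to 310 counts over 24 libraries.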
